A study of Mus musculus with 4 samples.

Results

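The genes described here encode phosphoinositide 3-kinase (PI3K) subunits and 2 lipid phosphatases, and 9 were listed by symbol. They were the catalytic subunit genes Pik3ca, Pik3cb, Pik3cd and Pik3cg, the regulatory subunit genes Pik3r1, Pik3r2 and Pik3r5, and the phosphatase genes Inpp5d and Inpp4b. Each m6A peak whose gene identifier in the deposited list was that of a listed gene was taken, which gave 22 of 20727 distinct peaks. Peaks were found in 8 of the 9 genes (88.9%), and 46.2% of all annotated protein-coding genes had a peak. Inpp4b had 0 peaks.

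The RNA came from spleen NK cells of wild-type C57BL/6 mice, and the cells had been expanded in the animals with the pLIVE-IL-15 plasmid before sorting. N6-methyladenosine (m6A) was mapped by methylated RNA immunoprecipitation sequencing, in which an antibody pulls down poly(A) RNA fragments of about 100 nt that carry the mark. There were 2 m6A immunoprecipitates and 2 input libraries without antibody. Whether the replicates came from separate mice is not given in the sources used here. All libraries came from such expanded cells, and no group without the plasmid and no mutant group was profiled. The comparison is therefore immunoprecipitate against input within the same kind of cell.

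Each peak has 1 fold enrichment (immunoprecipitate over input) and 1 peak-calling p-value, given as its log10. How the replicates were combined in these values is not given in the sources used here. Where a pair of values is given for a peak, the first is the fold enrichment and the second the log10 p. No value per library was available, so no spread between replicates and no depth could be attached to a value, and none of the statements below is a test between samples. A peak enriched 5-fold or more is called strong, the cut the study applied for its pathway analysis. A p-value under 0.001 (a log10 p below -3) is used as a second, stricter line, because the weakest peaks in the list had a log10 p of -1.3.

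PI3K converts a membrane lipid into phosphatidylinositol trisphosphate (PIP3), which recruits AKT and other proteins that bind it. The IL-15 receptor signals through this pathway in NK cells, beside STAT5 and MAPK signalling. Class IA enzymes pair a catalytic subunit (p110α, p110β or p110δ) with a regulatory subunit of the p85 type, while p110γ pairs with p101 or p84 and answers to G protein-coupled receptors. SHIP-1, encoded by Inpp5d, removes a phosphate from PIP3, and INPP4B removes another from the product of SHIP-1. m6A is written mainly within the consensus DRACH (where D stands for any base but C, R for A or G and H for any base but G) and is known for its density near stop codons and in last exons.

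The sites shown first are the DRACH sequences that lie inside the peaks that carry the description. For each gene the peak with the lowest p-value was taken, and to these were added the other peaks that hold GGACT, the form of the consensus most often reported as methylated. Within a peak the site is the GGACT, then another GGAC site that fits DRACH, then any DRACH site, nearest the centre of the peak. Peaks are numbered from 5′ to 3′ on the strand of the gene. Each line gives the GRCm38 transcript strand with 10 nt on either side, and capitals mark the 5 nt of the consensus.

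Pik3ca peak 1, chr3:32464626-32464650, plus strand: agtgaacaggGGACTctaatagaaa
Pik3ca peak 4, chr3:32467240-32467264, plus strand: aatgcagaaaGGACTtgttgttagg
Pik3cb peak 1, chr9:99038510-99038534, minus strand: gtggcatgggAAACAgctgagtact
Pik3cd peak 1, chr4:149649831-149649855, minus strand: tggacggacaGGACTgatctcttcc
Pik3cd peak 2, chr4:149649227-149649251, minus strand: atgggggctgAGACCagtttgtgca
Pik3r1 peak 7, chr13:101680966-101680990, minus strand: tctgtttataTGACAttgataaact
Pik3r2 peak 1, chr8:70768280-70768304, minus strand: ctcccctttgGGACAagggccctgg
Pik3r5 peak 3, chr11:68497308-68497332, plus strand: ctcagctggaGGACTggtgcacatt
Inpp5d peak 3, chr1:87720410-87720434, plus strand: ttaatgtaggAAACCagacctagat

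The sites differ in form, from GGACT in Pik3ca, Pik3cd and Pik3r5 to AAACA in Pik3cb and TGACA in the most enriched coding-transcript peak of Pik3r1. The only peak of Pik3cg held no DRACH site. A match marks letters in a window and not a measured methylated base, since a peak is wider than a site.

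The labelled cell type was checked against markers, for which a peak shows that RNA was present and not how much. All 10 NK cell markers had a peak with a p-value under 0.001, with fold enrichments of at most 3.28. A peak with a p-value under 0.001 was also found in 5 of 5 myeloid, 3 of 5 T cell, 3 of 5 B cell and 2 of 4 erythroid markers. The highest fold enrichment was 3.56 among the myeloid and 2.69 among the erythroid markers, but 31.6 among the T cell and 75.9 among the B cell markers. The 31.6 was at Cd3g, in a peak that touched 0 nt of a coding isoform. Cd3e had 30.3 in a peak with 1462 nt on a coding isoform. The markers without a peak included Cd4, Cd8a, Ms4a1 and Alas2. Several of the described genes, among them Pik3cd, Pik3cg, Pik3r5 and Inpp5d, are also expressed in other blood cells, and the part of such cells in these peaks was not tested.

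The positions of the peaks were examined first. On the longest coding transcript of each gene, 17 of the 22 peaks could be placed, and all 17 had their centre in the 3′ UTR and lay wholly in the last exon. In the whole list 56.5% of placed peaks had their centre in the 3′ UTR and 58.8% lay wholly in the last exon. None of the 17 was centred within 200 nt of the stop codon, where 22.3% of all placed peaks and 21.1% of all 3′ UTR peaks lay. The nearest centre was that of Inpp5d peak 2, 316 nt past the stop codon, and the farthest that of Pik3ca peak 4, at 4125 nt. The median was 1186 nt for these 17 peaks and 716 nt for all 8881 peaks in 3′ UTRs.

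The 3′ UTRs of these genes are long. Their median was 2003.5 nt in the 8 genes with a peak and 1120 nt in all protein-coding genes with a peak. Relative to the length of the 3′ UTR, the centres ran from 14.2% (Pik3r1 peak 4) to 91.1% (Inpp5d peak 3), with a median of 51.5%, and the median of all 3′ UTR peaks was 58.9%. On the relative scale the median of these peaks was thus nearer to the stop codon, and on the scale of nt farther from it, than that of the list.

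**Figure D1:**
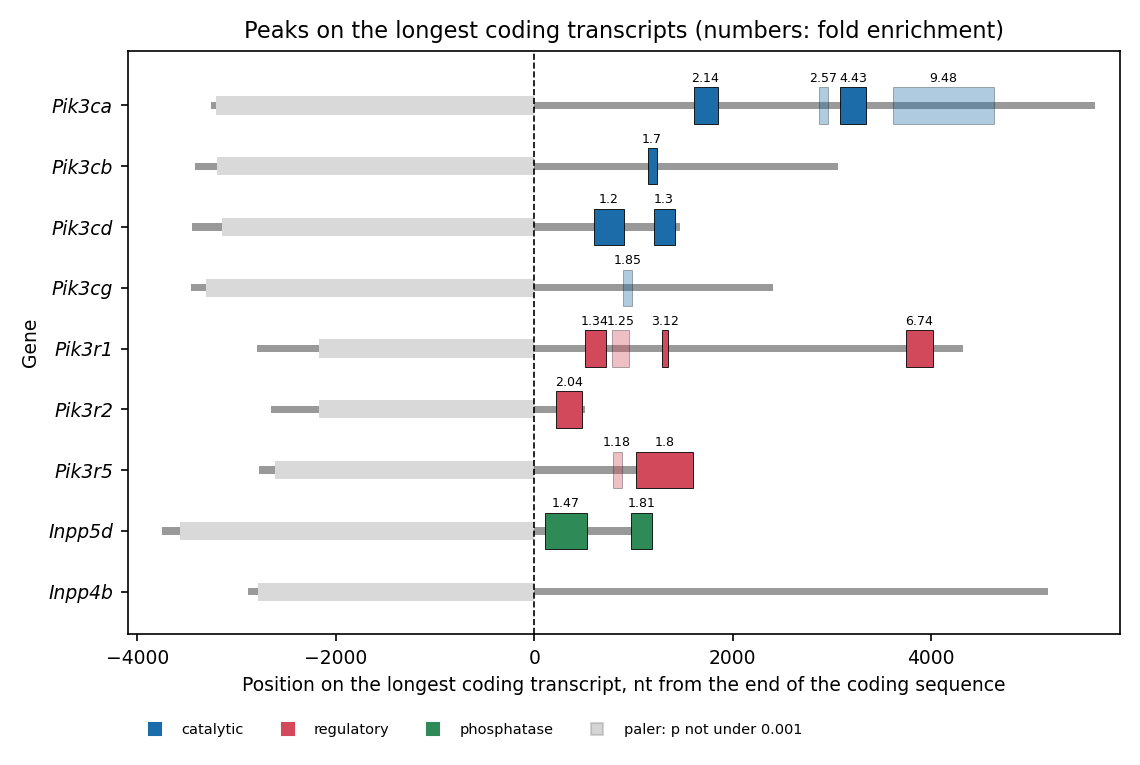
Peaks on the longest coding transcript of each of the 9 genes, with position in nt from the end of the coding sequence on the x axis, thick grey bars for coding sequence, thin bars for UTRs and the fold enrichment printed above each peak. All 17 placed peaks sit to the right of the stop codon, paler peaks have a p-value that is not under 0.001, and Inpp4b has none.

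**Figure D2:**
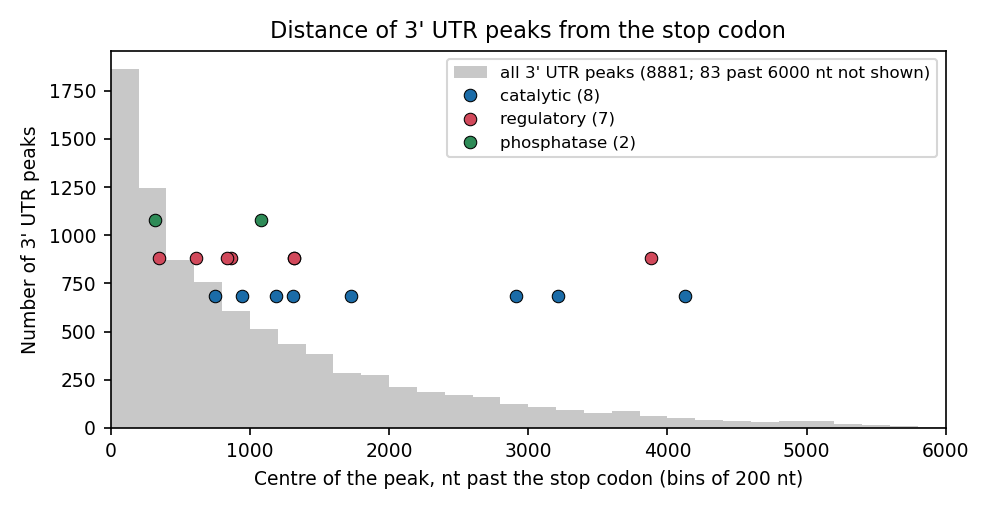
Distance from the stop codon to the centre of 3′ UTR peaks, as a histogram of all 8881 such peaks in bins of 200 nt, of which 83 lie past the axis end at 6000 nt, with the 17 peaks of PI3K and SHIP-1 genes as dots at arbitrary heights. The first bin is the tallest for the whole list and holds none of the dots, which run from 316 to 4125 nt.

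Fold enrichments of the 22 peaks ran from 1.18 to 11.4, with a median of 1.97, against a median of 2.66 over all peaks. A value under 2 was found for 11 of the 22, and for 36.1% of all peaks. Of the 22 peaks, 3 were strong (13.6%), and 34.6% of all peaks in the list were strong. A p-value under 0.001 was reached by 12 of the 22 (54.5%), against 61.5% of all peaks. The 2 lines seldom met, since only Pik3r1 peak 7 was strong with a p-value under 0.001, as were 19.0% of all peaks. The strong peak nearest to the cut was Pik3r1 peak 7 at 6.74, and the nearest below it was Pik3ca peak 3 at 4.43.

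Compared with other 3′ UTR peaks alone, the differences in fold enrichment were small. The 17 placed peaks had a median fold enrichment of 1.81, and all 3′ UTR peaks had 2.02. Of the 17, 2 were strong (11.8%), against 18.4% of all 3′ UTR peaks, and 12 had a p-value under 0.001 (70.6%), against 67.9%. The 5 peaks that could not be placed had a median of 4.17, and none of them reached a p-value of 0.001. In all protein-coding genes, 2535 peaks lay off the longest coding transcript. Their median was 4.74, and 1103 of them had a p-value under 0.001.

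**Figure D3:**
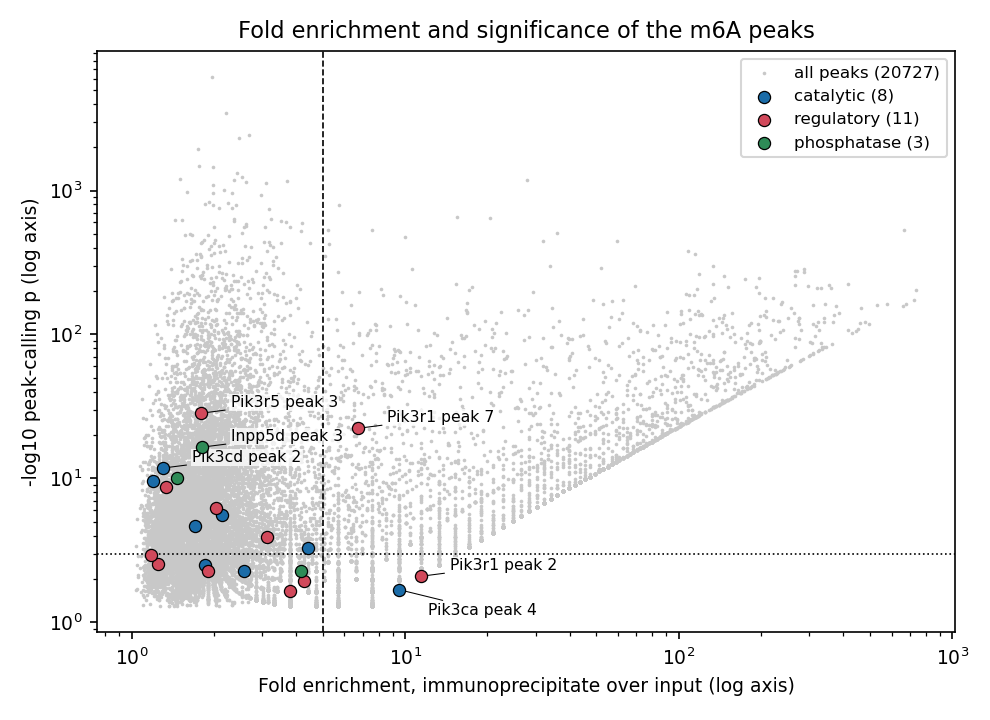
Fold enrichment (x axis, log scale) against the negative log10 of the peak-calling p-value (y axis, log scale) for all 20727 peaks in grey and the 22 peaks of the listed genes in colour by role, with a dashed line at a fold enrichment of 5 and a dotted line at a p-value of 0.001. Pik3r1 peak 7 is the only coloured point beyond both lines, and the strong peaks Pik3r1 peak 2 and Pik3ca peak 4 lie under the dotted line.

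Among the catalytic subunit genes, Pik3ca carried the most peaks and the highest fold enrichments. Pik3ca (ENSMUSG00000027665, chromosome 3, plus strand) encodes p110α, the catalytic subunit found in most tissues. It had 4 peaks, all in exon 20 of 20 and in a 3′ UTR of 5655 nt, of which 28.7% lay in peaks. At least 4 peaks were found in 6.66% of genes with a peak. Peak 1 (32464437 to 32464677) was enriched 2.14-fold with log10 p = -5.57. Peak 2 (32465697 to 32465787) had 2.57 and -2.27, and peak 3 (32465907 to 32466177) had 4.43 and -3.28. Peak 4 (32466447 to 32467466) had the highest fold enrichment of the gene, 9.48, and its weakest p-value, a log10 p of -1.69.

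Fold enrichment and significance thus ran in different orders along the Pik3ca 3′ UTR. The first 3 peaks overlapped the 3 coding isoforms of the gene, whereas peak 4 overlapped Pik3ca-201 alone, the isoform with the longest 3′ UTR. Peak 4 was also the widest, at 1020 nt, and its pair of fold enrichment and p-value was that of 845 peaks in the list. Pairs of the other Pik3ca peaks were shared by at most 4 peaks.

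Pik3cb (ENSMUSG00000032462, chromosome 9, minus strand) encodes p110β. Its only peak (99038482 to 99038572, 91 nt) lay in exon 24 of 24, centred 1186 nt past the stop codon. It was enriched 1.7-fold with log10 p = -4.65, and it covered 2.97% of a 3′ UTR of 3059 nt. This peak overlapped 1 of 2 coding isoforms.

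Pik3cd had the lowest fold enrichments and the lowest p-values among the catalytic subunit genes. The gene (ENSMUSG00000039936, chromosome 4, minus strand) encodes p110δ, a leukocyte-enriched subunit that acts downstream of cytokine and antigen receptors in lymphocytes. Peak 1 (149649737 to 149650036) was enriched 1.2-fold with log10 p = -9.56, and peak 2 (149649228 to 149649437) had 1.3 and -11.8. Only 1.7% of all peaks had a lower fold enrichment than peak 1 and 5.03% a lower one than peak 2, while 73.3% and 77.7% had a weaker p-value. Together the peaks covered 34.6% of a 3′ UTR of 1472 nt, and peak 2 ended 60 nt before the end of the transcript.

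Pik3cg (ENSMUSG00000020573, chromosome 12, minus strand) encodes p110γ, the other leukocyte-enriched catalytic subunit. Its only peak (32175592 to 32175682, 91 nt) was enriched 1.85-fold with log10 p = -2.51. Pik3cg was the only gene with a peak in which none had a p-value under 0.001, and 73.3% of protein-coding genes with a peak had such a peak. The peak covered 3.78% of a 3′ UTR of 2408 nt and held no DRACH site.

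A single peak was found in Pik3cb, Pik3cg and Pik3r2, 3 of the 8 genes with a peak, as in 59.8% of all genes with a peak.

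The regulatory subunit genes held 11 of the 22 peaks, 7 of them in Pik3r1. Pik3r1 (ENSMUSG00000041417, chromosome 13, minus strand) encodes p85α, which stabilizes and restrains the class IA catalytic subunits, and shorter isoforms that start inside the gene. Counted by gene identifier, at least 7 peaks were found in 46 genes, or 0.372% of genes with a peak. The 7 of Pik3r1 include peak 2, which overlapped no exon of the gene. The 7 peaks were of different kinds, 4 in the 3′ UTR of the full-length transcript and 3 upstream of it in introns of that transcript.

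The 3′ UTR peaks of Pik3r1 lay in exon 16 of 16. Peak 4 (101684162 to 101684372) was enriched 1.34-fold with log10 p = -8.79, and peak 5 (101683922 to 101684102), 59 nt farther on, had 1.25 and -2.54. Peak 6 (101683532 to 101683592) had 3.12 and -3.89. Peak 7 (101680863 to 101681133) was enriched 6.74-fold with log10 p = -22.3, stronger than 87.6% of all peaks in significance and than 70.5% in fold enrichment. It was centred 3882 nt past the stop codon, 2398 nt from the end of peak 6 and 300 nt before the end of the transcript. Peaks 4 and 5 overlapped 2 coding isoforms, and peaks 6 and 7 only Pik3r1-202, which codes for 724 residues.

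Among the 4 peaks of Pik3r1 in the 3′ UTR, fold enrichment was therefore highest in the one at the far end, in a stretch with 6 DRACH sites and no GGAC. This was the only peak of the 22 with a high fold enrichment, a low p-value and a place on a coding isoform. No other peak in the list had the same pair of values.

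The other Pik3r1 peaks had weak p-values. Peak 3 (101692410 to 101692530) carried the 5′ UTR label of the authors and lay in intron 7 of the longest coding transcript. It overlapped the 5′ UTR of Pik3r1-201, an isoform of 454 residues that lacks the N-terminal part of p85α, and it was enriched 3.79-fold with log10 p = -1.64. Peak 1 (101755761 to 101755850) lay in intron 2, on a retained-intron transcript, with 4.27 and -1.95. Peak 2 (101750522 to 101751175) also lay in intron 2 and overlapped no exon of Pik3r1.

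Peak 2 had the highest fold enrichment assigned to any of the 9 genes, 11.4, with a log10 p of -2.09. All its 654 nt lay on the exon of Gm36638 (ENSMUSG00000104214), an unconfirmed transcript on the same strand. The annotation column of the list names that transcript, although the gene identifier of the row was that of Pik3r1. The pair of values of peak 2 was that of 532 peaks, that of peak 3 of 60 and that of peak 1 of 27. Without peak 2 the highest fold enrichment of Pik3r1 would be the 6.74 of peak 7.

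Pik3r2 (ENSMUSG00000031834, chromosome 8, minus strand) encodes p85β. Its only peak (70768206 to 70768474) was enriched 2.04-fold with log10 p = -6.19 and covered 52.3% of a short 3′ UTR of 514 nt. It held 7 DRACH sites and 4 GGAC sites and ended 30 nt before the end of the transcript. The peak also overlapped 15 nt of 6330537M06Rik, an unconfirmed transcript on the opposite strand, and the list gives no strand.

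Pik3r5 (ENSMUSG00000020901, chromosome 11, plus strand) encodes p101, which links p110γ to G protein βγ subunits. Peak 3 (68497279 to 68497849), which reached the last base of the transcript, had the lowest p-value of the 22 peaks, a log10 p of -28.4, with a fold enrichment of 1.8. Peak 2 (68497039 to 68497129), 149 nt upstream of it, had 1.18 and -2.96, the lowest fold enrichment of the 22. Peak 1 (68476663 to 68476753) lay in intron 4 of the coding transcript, on a processed transcript, with 1.9 and -2.29. The p101 gene thus had the strongest p-value at a modest fold enrichment, the reverse of Pik3r1 peak 2.

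Of the phosphatase genes, only Inpp5d had peaks. Inpp5d (ENSMUSG00000026288, chromosome 1, plus strand) encodes SHIP-1, a phosphatase of blood cells that is recruited to inhibitory receptors. Peak 2 (87719430 to 87719849) was enriched 1.47-fold with log10 p = -10.0, and peak 3 (87720298 to 87720507) had 1.81 and -16.5. Together they covered 53.2% of a 3′ UTR of 1184 nt, the highest share among the 8 genes, and peak 3 ended at the last base of the transcript. Peak 1 (87643145 to 87643355) lay in intron 2 on a processed transcript, with 4.17 and -2.27, a pair found in 18 peaks.

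Inpp4b (ENSMUSG00000037940, chromosome 8, plus strand, 81342556 to 82127914) had 0 peaks, and no peak of any gene overlapped its span. Its longest coding transcript has a 3′ UTR of 5179 nt with 105 DRACH sites, 20.3 per kb, a density within the range of 17.6 to 23.3 per kb in the 3′ UTRs of the other 8 genes. Without read counts the absence of a peak cannot be told apart from too little RNA for a call.

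The pairs of values were also compared between peaks with a p-value under 0.001 and the others. Of the 12 peaks with a p-value under 0.001, 9 had a pair of fold enrichment and p-value found nowhere else in the list, and no pair was shared by more than 2 peaks. Of the other 10 peaks, 5 had a pair shared by at least 10 peaks. Of all peaks in the list, 46.4% shared their pair with another. The 5 unplaced peaks were 22.7% of the 22, and 13.9% of all peaks in protein-coding genes lay off the longest coding transcript. These 5 came from Pik3r1, Pik3r5 and Inpp5d, and 4 of them overlapped no protein-coding isoform.

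Sequence content was described for the 21 peaks that touch an exon of their gene, on the strand of the gene and with overlapping sites counted. DRACH sites numbered 100 in 5113 nt, or 19.6 per kb, against 20.3 per kb over all such peaks. Within the 3′ UTRs of the 8 genes the density was 19.3 per kb in peaks and 20.1 per kb outside them. At least 1 DRACH site was held by 17 peaks, and none by Pik3ca peak 2, Pik3cg peak 1, Pik3r1 peak 1 and Pik3r1 peak 5. The transcripts of the 8 genes hold 63 GGACT sites, 27 of them in 3′ UTRs, and 4 of these lay in a peak, in Pik3ca peaks 1 and 4, Pik3cd peak 1 and Pik3r5 peak 3.

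For peaks of like length the shares were close for GGACT and lower for GGAC. Among peaks with 61 to 300 exonic nt, 2 of 18 peaks of the listed genes held GGACT (11.1%), against 15.4% of 11741 peaks in the list. GGAC, which GGACT contains, was held by 4 of 18 (22.2%), against 43.1%, and DRACH by 14 of 18 (77.8%), against 89.3%. The 2 sets were matched for length and not for region of the transcript. With 18 peaks these shares are counts, and no test was made on them.

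The ends of transcripts were also covered. The 3′ edge of 4 of the 17 placed peaks lay within 100 nt of the end of the transcript (23.5%), in Pik3cd, Pik3r2, Pik3r5 and Inpp5d, against 45.7% of all 3′ UTR peaks. In Pik3cd, Pik3r5 and Inpp5d that peak was also the one with the lowest p-value of the gene, and Pik3r2 has no other peak. In Pik3ca, Pik3r1, Pik3cb and Pik3cg, which have the longest 3′ UTRs of the 8, no peak lay that close to the end.

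The other genes that make, remove or bind phosphoinositides were described from 4 lists, chosen by function and holding 55 genes. A peak was found in 41 of them (74.5%) and a strong peak in 19 of these 41 (46.3%). Of the 8 PI3K subunit and SHIP-1 genes with a peak, 2 had a strong peak (25.0%), and among all protein-coding genes with a peak the share was 43.4%. With strong peaks on a protein-coding isoform alone, 13 of the 41 genes and 2 of these 8 had one. The share over all protein-coding genes was not computed on that basis, so the 43.4% is no measure for these 2 counts. The median fold enrichment of the 77 peaks was 2.26. Of the 67 peaks that could be placed, 46 had their centre in the 3′ UTR (68.7%).

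In the list of other PI3K genes, 6 of 9 had a peak and 3 a strong one, all 3 in class II enzymes. Pik3c2g was enriched 24.7-fold with log10 p = -5.04 in a peak that covered 100% of its transcript. Pik3c2a had 17.1 and -3.33 in the coding sequence. Pik3c2b had 8.67 and -8.87 in the 3′ UTR. Pik3r4, which encodes the regulatory partner of the class III enzyme, had 2.28 and -5.04. Pik3r3, Pik3ap1 and Pik3ip1 had no peak, so 1 of the 3 class IA regulatory genes of the p85 type, Pik3r3, was without one.

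Of the 20 other phosphoinositide phosphatases, 14 had a peak and 7 a strong one. Inpp5f had the highest fold enrichment, 157, with a log10 p of -113. Its peak was centred in the coding sequence of the longest coding transcript. There it covered 188 nt, while 839 nt lay on coding isoforms. Ocrl followed with 89.1 and -25.8, and Synj2 with 74 and -20.4. Inpp4a, the paralogue of Inpp4b, had a peak with 7.85-fold enrichment and log10 p = -74.2 in its 3′ UTR, beside the 0 peaks of Inpp4b.

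Of the 11 phosphoinositide kinases, 8 had a peak and 2 a strong one. Pikfyve was enriched 28.4-fold with log10 p = -22, but that peak touched 0 nt of a coding isoform, and Pip5k1a had 22.8 and -6.94 in the 3′ UTR. Pip4k2a had the lowest p-value of this list, -35, at 1.83, and its highest fold enrichment was 4.74. Pip5k1c had 2.28 and -10. Pi4kb, Pi4k2b and Pip5k1b had no peak.

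Of the 15 PIP3-binding effectors, 13 had a peak and 7 a strong one. The highest values were 45.5 at Pdpk1, the kinase that activates AKT, 39.8 at Plcg1 and then 17.1 at Prex1. The peaks of Pdpk1 and Plcg1 touched 0 nt of a coding isoform, and that of Plcg1 touched no exon of its gene. The lowest p-values were log10 p of -41.5 at Dock2 with a fold enrichment of 1.48, -37.7 at Akt1 with 1.63 and -32.2 at Prex1 with 1.8, all in the 3′ UTR. These 3 peaks resembled Pik3r5 peak 3, with a low p-value at a fold enrichment under 2.

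**Figure D4:**
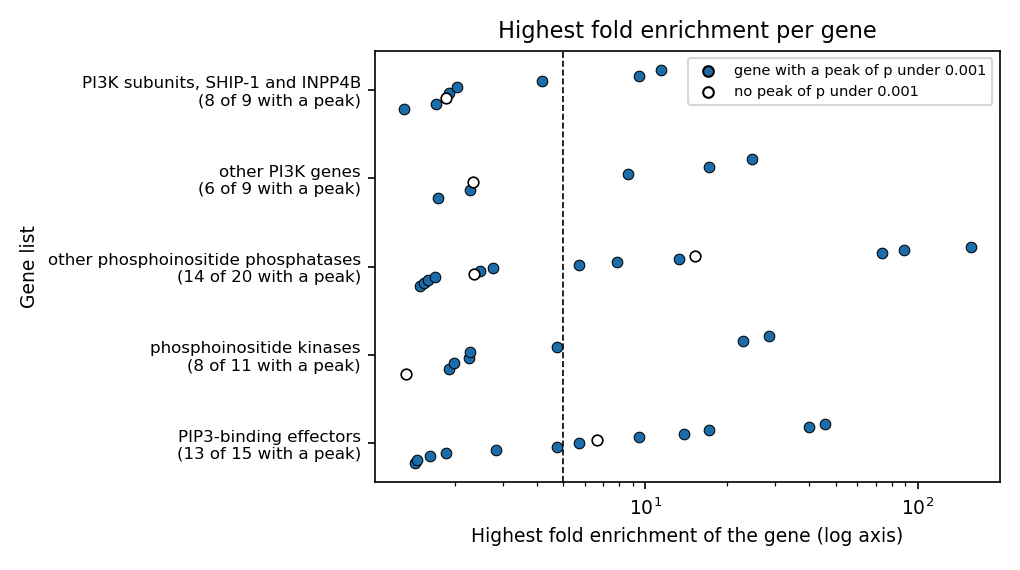
Highest fold enrichment of each gene with a peak (x axis, log scale) for the 9 PI3K subunit and phosphatase genes and 4 lists of related genes, with a dashed line at a fold enrichment of 5 and filled dots for genes with a peak of p under 0.001. Heights within a row only keep the dots apart. The peak with that p-value need not be the one plotted, as for Pik3r1 at 11.4 and Pik3ca at 9.48. The 9 genes reach 11.4 at most, in a peak that overlapped no exon of Pik3r1, and the other phosphatases reach 157.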

How the data were processed

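MeRIP-seq was carried out on 2 m6A immunoprecipitates and 2 input libraries. Per the study's methods, quality control of the reads by the authors was followed by alignment with HISAT2, peak calling with exomePeak and annotation with ChIPseeker (version 1.0, build GRCm38 in the processing notes). How replicates were combined is not given in the sources used here. The deposited fold enrichment is a linear ratio of immunoprecipitate over input, as exomePeak gave it to the authors. The deposited significance is a score, the log10 of the unadjusted peak-calling p-value. Neither has a value per sample, so the depth is unknown and no test between samples was run.

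Of 20751 rows, 24 exact repeats were dropped. Symbols were matched to GENCODE M21 (GRCm38), and all 9 matched. In the list, 4016 starts and 4084 ends fell exactly on exon edges of the gene in 1-based coordinates. Peaks were placed on the longest coding transcript by the centre of their exonic part (15721 peaks). Sequences were read from the GRCm38.p6 RefSeq genome. Placement and motif counts were tested on simulated data. Python 3.11.15, pandas 2.3.3 and NumPy 2.4.6 were used.

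The 9 genes, the 4 lists of related genes and the cell markers were chosen with earlier results of these data known. Named genes of the lists are at most the 3 with the highest fold enrichment and the 3 with the lowest p-value of each, and genes without a peak where 5 or fewer. Some genes of these lists are counted but not reported here by name. The alternatives concerned the thresholds, the transcript, the centre, the window, the motif and the assignment of peaks.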

Additional observations from a re-analysis of the deposited data

How the results depend on the processing

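Of 36 alternative values for 10 results, 26 stayed within 1.5 times the reported value and 10 moved further. The cause was not tested beyond the construction of each alternative. Some values were fixed in advance. With 0 centres within 200 nt of the stop codon, a window of 100 nt and the peaks with a p-value under 0.001 had to give 0 too. The tally is therefore no measure of robustness. Among peaks enriched 2-fold or more there were 11 in place of 22 peaks and 4 in place of 8 genes, and at a p-value under 0.001 there were 12 peaks in 7 genes. The 3 strong peaks became 8 with a cut of 3, 1 with a cut of 10 and 1 with the cut of 5 joined to a p-value under 0.001. The 2 genes with a strong peak became 1 in each of the last 2 settings. A window of 400 nt around the stop codon held 2 peak centres in place of 0. Counting GGAC in place of DRACH gave 3.91 sites per kb in place of 19.6. The other alternatives, among them the transcript with the longest coding sequence, the centre of the genomic span, the region column of the authors and any peak over an exon of the gene, kept each value within the limit.

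No paired analysis was possible because no value per library was given for a peak. Replicate numbers 1 and 2 stand in the labels of immunoprecipitates and inputs, but leaving out a replicate and the count test could not be run either. Since read depth was not available, its effect on the weak peaks and on Inpp4b, where 0 peaks were called, could not be computed.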
